A study of Mus musculus with 6 samples.

Results

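The 6 hippocampus libraries of this RNA sequencing study fell on opposite sides of the transcript Ttr, and 2 of the 6 held little choroid plexus RNA. The sides were chosen by the Ttr level alone, in RPKM (a read count divided by gene length and by library depth). Libraries with Ttr below 100 RPKM, shControl1 and shHepaCAM3, are called Ttr-low. The 4 libraries above 1000 RPKM, shControl2, shControl3, shHepaCAM1 and shHepaCAM2, are called Ttr-high. The highest Ttr level among the Ttr-low libraries was 62.1 RPKM, in shControl1. The lowest among the Ttr-high libraries was 1660.1 RPKM, in shHepaCAM2. Any difference between the sides in these 6 libraries is therefore a description and carries no test.

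All 6 libraries came from hippocampus of C57BL/6J mice, and the labels give no age. The 3 shHepaCAM libraries are labelled HepaCAM knockdown: an adeno-associated virus was injected in CA1 of both hippocampi to lower Hepacam, which encodes an adhesion protein of astrocytes. The 3 shControl libraries carry the genotype label WT, and the labels do not say whether these mice received a vector. Nor do the labels name the promoter of the virus, or say whether each library is 1 mouse or a pool. The p-values below therefore measure the spread between libraries, which may be technical. Each group held 1 Ttr-low and 2 Ttr-high libraries.

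The choroid plexus is a fringe of tissue in the brain ventricles, with an epithelium of its own over a stroma with leaky capillaries. That epithelium makes most of the cerebrospinal fluid, and it secretes transthyretin, the carrier of thyroid hormone and retinol encoded by Ttr. It moves ions and water with a characteristic set of transporters, and tight junctions between its cells form the barrier between blood and cerebrospinal fluid. The fimbria of the hippocampus borders the lateral ventricle, where choroid plexus lies.

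Depth was similar in all libraries, from 14903198 to 17341842 reads, and 79.6% and 80% of the genes in the files were above 0 in the Ttr-low libraries against 77.9% to 81.8% in the Ttr-high ones. Hepacam stood at 37.3, 33.4 and 35.9 RPKM in shControl1 to shControl3 and at 24.4, 22.6 and 20.9 RPKM in shHepaCAM1 to shHepaCAM3. All 3 knockdown libraries were below all 3 controls. With the side as a covariate, Hepacam fell by 0.63 in log2(RPKM + 1) units (SE 0.08, limma adjusted p = 0.0159); p was 0.1 in an exact permutation test (two-sided), the lowest value possible with 3 against 3 libraries. The call was lost in 6 of 17 alternatives, among them the fits without shControl1, shControl2, shControl3 or shHepaCAM3, with limma adjusted p up to 0.0887. Between the sides Hepacam differed by -0.03 (SE 0.08). The astrocyte, neuron and CA1 lists also stood near 0, with median side differences of 0.07, 0.06 and 0.09.

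Ttr took a share of the library that differed by orders of magnitude. It stood at 62.1, 4192 and 3617 RPKM in shControl1, shControl2 and shControl3, and at 2278, 1660.1 and 25.5 RPKM in shHepaCAM1, shHepaCAM2 and shHepaCAM3. In shControl2, 88623 reads fell on Ttr, 0.511% of the library (Wilson 95% interval 0.508% to 0.514%). In shHepaCAM3 it was 510 reads, 0.00311% (0.00285% to 0.00339%). These intervals cover counting error only. Against the mean of the other libraries of its own group, Ttr was at 1.59% in the Ttr-low control and at 1.3% in the Ttr-low knockdown. In these bulk tissue libraries, fewer choroid plexus cells and less choroid plexus RNA per cell cannot be told apart.

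A list of 53 genes known from choroid plexus epithelium served to describe what followed Ttr. Of these, 47 had a mean of at least 1 RPKM and were fitted. Apart from Ttr, which met this by the rule, both Ttr-low libraries were below all 4 Ttr-high libraries for 45 of 46 members. Over all 13864 genes fitted, 953 behaved so (6.87%), and 706 stood above all 4 (5.09%). In the limma fit with the knockdown group as covariate, 29 of these 46 were past an adjusted p of 0.05 and lower in the Ttr-low libraries. Of all genes, Ttr included, 51 were (0.368%). The count over all genes, 52 in both directions, was 17 to 38 with 1 library left out. Because these libraries were divided on Ttr, such counts only describe them. The median side difference was -1.78 over the 46 members other than Ttr and 0.00 over all genes on the log2(RPKM + 1) scale.

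**Figure D1:**
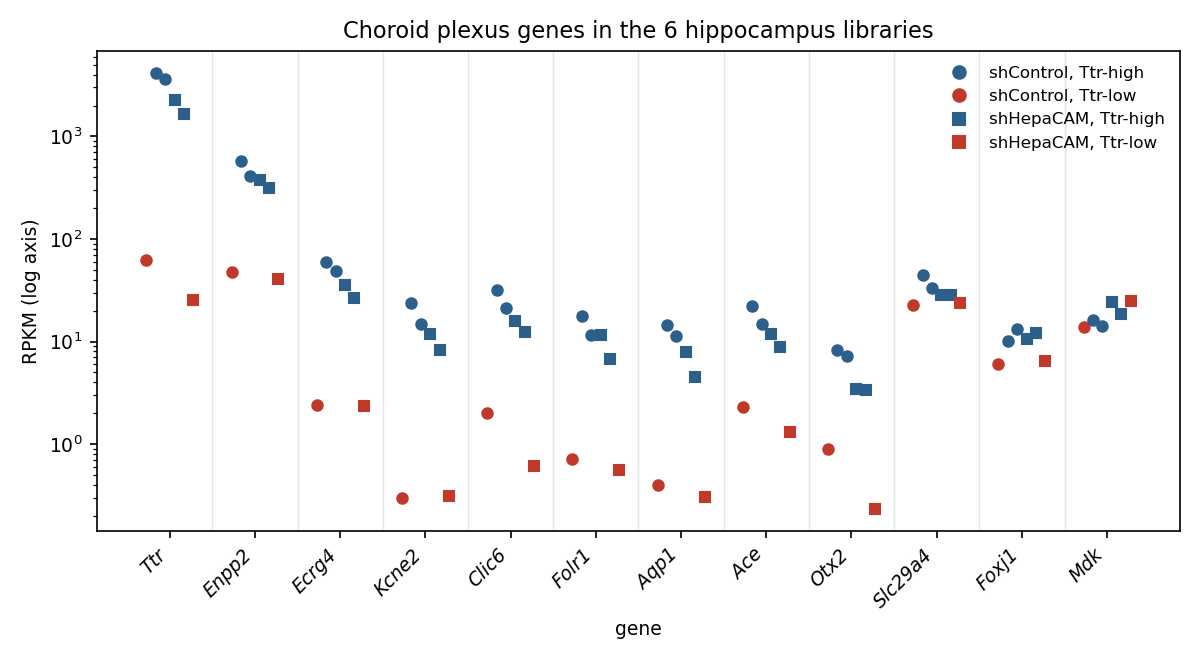
Levels of 12 choroid plexus genes in RPKM on a log axis, 1 point per library, in the order shControl1 to shControl3 and shHepaCAM1 to shHepaCAM3 for each gene. Ttr, at 25.5 and 62.1 RPKM in the Ttr-low libraries (red), is above 1000 RPKM in the others (blue), while Mdk overlaps.

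Among the secreted proteins and carriers, 14 of 15 genes were fitted. In all 14, against 6.87% of all genes fitted, the Ttr-low libraries were the lowest of the 6, in Ttr by the rule. Enpp2, which encodes autotaxin, the enzyme that makes lysophosphatidic acid, was the most abundant of them after Ttr. It stood at 48.1, 576 and 415 RPKM in shControl1 to shControl3 and at 379, 316 and 40.5 RPKM in shHepaCAM1 to shHepaCAM3. Both Ttr-low libraries thus kept a clear Enpp2 signal of 5716 and 4606 reads, yet lay well under the other 4, with a side difference of -3.19 (SE 0.15). Ecrg4, a secreted peptide precursor, stood at 2.40, 58.9 and 48.3 RPKM in the controls and at 35.9, 26.4 and 2.37 RPKM in the knockdowns. On the log2(RPKM + 1) scale, which compresses low genes, the side difference was -6.07 (SE 0.15) for Ttr and -3.62 (SE 0.20) for Ecrg4. As a share of its group, Ecrg4 kept 4.47% and 7.61% in the Ttr-low libraries, more than several rarer members described below.

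Growth factor and hormone genes of the epithelium were lower by less. Kl, encoding the FGF co-receptor klotho, stood at 2.78, 21.1 and 15.1 RPKM in the controls and 11.5, 9.02 and 2.24 RPKM in the knockdowns. Igf2, the insulin-like growth factor that choroid plexus releases into the fluid, stood at 10.4, 55.2 and 41.0 RPKM and at 30.5, 24.3 and 8.96 RPKM. Its binding partner Igfbp2 stood at 19.0, 88.9 and 70.8 RPKM in the controls and 42.9, 33.9 and 15.2 RPKM in the knockdowns. For Igf2 and Igfbp2 the Ttr-low libraries still held 21.6% and 23.8% of the level of their group in the controls and 32.7% and 39.5% in the knockdowns. Side differences were -2.05 for Kl, -1.80 for Igf2 and -1.64 for Igfbp2 (SE 0.18 to 0.19).

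Transporters and channels showed some of the sharpest contrasts. Kcne2, a potassium channel subunit of the apical membrane, stood at 0.298, 24.0 and 14.7 RPKM in shControl1 to shControl3 and at 11.8, 8.17 and 0.311 RPKM in shHepaCAM1 to shHepaCAM3. The Ttr-low libraries held 9 reads each, against 233 to 734 in the others. Slc4a5, a sodium bicarbonate cotransporter, likewise gave 9 reads in each Ttr-low library and 252 to 826 reads elsewhere. Aqp1, the water channel of the apical membrane, stood at 0.400, 14.6 and 11.3 RPKM in the controls and at 7.92, 4.48 and 0.302 RPKM in the knockdowns. Folr1, the folate receptor that carries folate into the fluid, stood at 0.712, 17.9 and 11.5 RPKM and at 11.7, 6.72 and 0.558 RPKM. The chloride channel gene Clic6 stood at 2.02, 31.6 and 21.4 RPKM and at 16.0, 12.4 and 0.608 RPKM. None of these 5 genes overlapped between the sides. Their side differences ran from -3.49 (Kcne2, SE 0.27) to -2.43 (Slc4a5, SE 0.24).

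Not every transporter on the list was scarce in the Ttr-low libraries. Slc29a4, a monoamine transporter also known from neurons, stood at 22.9, 44.8 and 33.4 RPKM in the controls and at 28.5, 28.6 and 23.5 RPKM in the knockdowns. The Ttr-low libraries were still the 2 lowest of 6, but kept 58.6% and 82.3% of the level of their group. Slc4a2, an anion exchanger, and Slc31a1, a copper importer, kept 36.2% and 41.9% in the control and 51.4% and 58.8% in the knockdown. All 15 fitted transporters and channels were lowest in the Ttr-low libraries, against 6.87% of all genes fitted. Of the 15, 10 were past the threshold between the sides and lower, against 0.368% of all genes.

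Junction, keratin, matrix and enzyme genes gave 14 of 15 fitted genes below all 4 Ttr-high libraries, against 6.87% of all genes fitted. Cldn2, the pore-forming claudin of leaky epithelia, stood at 0.176, 10.9 and 7.81 RPKM in the controls and at 4.53, 3.28 and 0.0551 RPKM in the knockdowns, or 10 and 3 reads in the Ttr-low libraries. Ace, which encodes angiotensin-converting enzyme, stood at 2.28, 22.1 and 14.7 RPKM and at 11.8, 8.79 and 1.30 RPKM. The keratin gene Krt18 stood at 0.710, 9.43 and 8.48 RPKM and at 4.29, 3.90 and 0.392 RPKM. Side differences were -2.66 (SE 0.24) for Cldn2, -2.41 (SE 0.18) for Ace and -2.21 (SE 0.16) for Krt18. Mdk, the heparin-binding growth factor midkine, was the exception among the 47, at 13.9, 16.2 and 14.1 RPKM in the controls and 24.4, 18.7 and 25 RPKM in the knockdowns. Its level overlapped between the sides, which differed by 0.05 (SE 0.13), and its higher values lay in the knockdown group.

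Of the 6 transcription factors listed, 3 were fitted. Otx2, the homeodomain factor needed to form and keep choroid plexus, stood at 0.895, 8.23 and 7.17 RPKM in the controls and at 3.42, 3.34 and 0.234 RPKM in the knockdowns. Msx1, a homeobox factor of the dorsal midline, stood at 2.13, 9.92 and 6.93 RPKM and at 7.94, 6.20 and 0.611 RPKM. Foxj1, the master factor of motile cilia and shared with ependyma, stood at 6.08, 10.2 and 13.1 RPKM and at 10.5, 12.0 and 6.47 RPKM. In all 3 the Ttr-low libraries were the lowest, against 6.87% of all genes fitted. Side differences were -2.01 (SE 0.12) for Otx2, -1.94 (SE 0.21) for Msx1 and -0.77 (SE 0.11) for Foxj1.

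The 6 listed genes with a mean below 1 RPKM were Cpxm2, Slco1a5, Cldn3, Lmx1a, Mcidas and Gmnc. In Slco1a5, Cldn3, Lmx1a and Gmnc both Ttr-low libraries were again below the other 4; Cldn3 stood at 0.279, 1.88 and 1.60 RPKM in the controls and at 0.803, 0.984 and 0.291 RPKM in the knockdowns. Cpxm2 was lowest in shHepaCAM3 only, at 0.423 RPKM. Mcidas, a switch gene of multiciliated cells, stood at 0.270, 0.267 and 0.113 RPKM in the controls and at 1.52, 1.51 and 1.39 RPKM in the knockdowns, so its levels split by group and not by side.

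Because OTX2 drives choroid plexus genes and binds the letters TAATCC, the 250 bases before the start of each member were read for that motif on both strands. RefSeq promoters on build GRCm38.p6 were found for 43 of the 53 members, and 3 of these (6.98%) held TAATCC, against 7.21% of 27025 genes. The windows of Ace and Otx2 are shown as examples of a gene of the list and of the factor itself, 5′ to 3′ on the gene's strand, with the motif or its complement GGATTA in capitals.
Ace, plus strand, chr11:105967698-105967947: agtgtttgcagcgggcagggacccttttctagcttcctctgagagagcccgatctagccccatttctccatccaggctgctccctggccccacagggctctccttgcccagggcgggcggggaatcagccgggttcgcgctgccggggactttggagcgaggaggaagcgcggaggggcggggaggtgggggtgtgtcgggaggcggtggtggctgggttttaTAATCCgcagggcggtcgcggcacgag
Otx2, minus strand, chr14:48665110-48665359: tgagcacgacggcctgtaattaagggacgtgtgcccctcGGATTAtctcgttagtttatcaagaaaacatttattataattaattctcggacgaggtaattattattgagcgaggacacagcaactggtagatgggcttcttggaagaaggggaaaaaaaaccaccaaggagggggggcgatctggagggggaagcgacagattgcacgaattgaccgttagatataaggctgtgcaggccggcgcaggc
The E-box letters CAGGTG, bound by several helix-loop-helix and zinc finger factors, were in 18 of the 43 windows (41.9%) against 19.4% of all genes, and GTTGCC, a half-site of the RFX factors of ciliated cells, in 7 (16.3%) against 11.8%. The longer TAATCCC, which overlaps TAATCC, was in 1 (2.33% against 2.27%). A match of letters is not a bound site, and these shares carry no test.

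The members differed widely in how much was left in the Ttr-low libraries. Taking for each gene the larger of its remainders in the 2 groups, 14 of 47 were below 10% of the mean of their Ttr-high libraries: Ttr, Cldn2, Tmem72, Slc4a5, Kcne2, F5, Wfdc2, Aqp1, Folr1, Col8a1, Krt8, Clic6, Ecrg4 and Krt18. Another 13 lay between 10% and 20%, among them Otx2, Enpp2, Ace, Kcnj13, Trpv4 and Slc13a4. Between 20% and 50% lay 12, among them Kl, Igf2, Igfbp2, Msx1 and Trpm3. The remaining 8, at 50% or more, included Slc4a2, Spint2, Foxj1, Slc31a1, Car12, Slc29a4 and Mdk. Over the 46 members other than Ttr, the median remainder was 11.7% in the control group (1.26% to 91.9%) and 15.8% in the knockdown group (1.36% to 116%).

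The Ttr-high libraries were not equal among themselves either. Summed over the 46 members other than Ttr, the level was 183, 1269 and 953 RPKM in shControl1 to shControl3 and 795, 666 and 177 RPKM in shHepaCAM1 to shHepaCAM3. The 2 Ttr-low libraries thus stood at 14.4% and 14.0% of the highest, shControl2, and the other 3 at 75.1%, 62.6% and 52.4%. Ttr put those 3 in the same order, at 86.3%, 54.3% and 39.6% of its level in shControl2. Gene by gene, 31 of the 46 had the 4 Ttr-high libraries in this order, shControl2, shControl3, shHepaCAM1, shHepaCAM2 from highest to lowest, as had 964 of all genes (6.95%). Relative to shControl2, the median of the 46 was 76.6% in shControl3, 55.3% in shHepaCAM1 and 44.1% in shHepaCAM2.

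**Figure D2:**
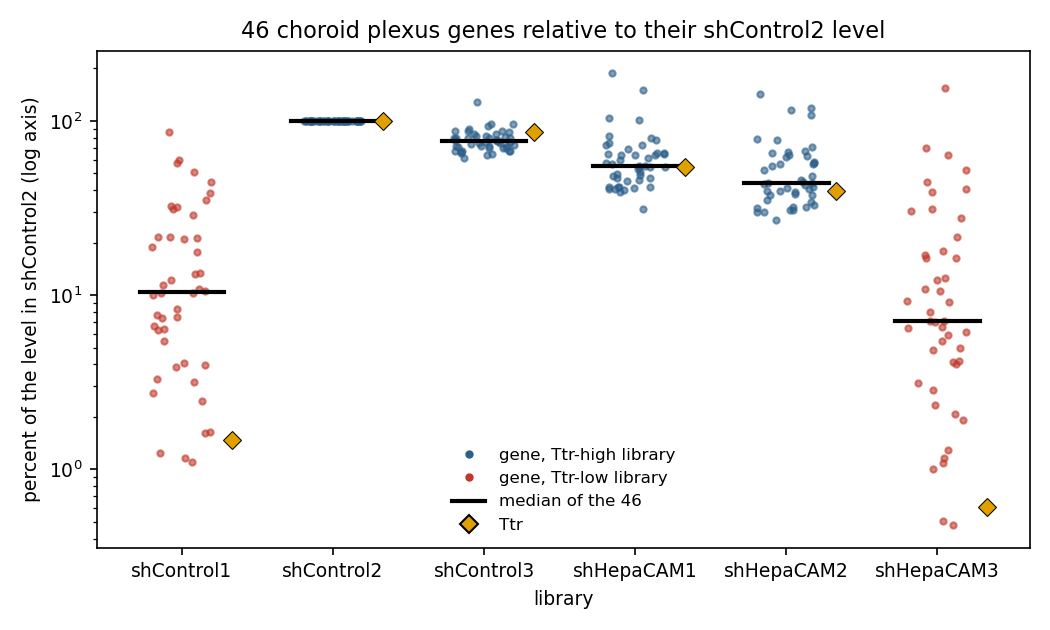
Level of each of 46 choroid plexus genes as a percent of its own level in shControl2, on a log axis, by library, with the median (bar) and Ttr (diamond). Medians are 76.6%, 55.3% and 44.1% in shControl3, shHepaCAM1 and shHepaCAM2, and 10.4% and 7.12% in shControl1 and shHepaCAM3, where Ttr is at 1.48% and 0.609%.

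Each group gave its own comparison of 1 Ttr-low against 2 Ttr-high libraries, and these share no library. In the controls, 86 of 13864 genes (0.62%) were lower in shControl1 than in both other controls by at least 1 on the log2(RPKM + 1) scale. In the knockdowns, 92 genes (0.664%) were lower in shHepaCAM3 by that much. Both lists held 40 genes in common, 46.5% of the first and 43.5% of the second. All 40 were protein-coding, 31 were choroid plexus list members, Ttr among them, and 9 were on none of the lists. In the other direction, 31 genes were higher in shControl1 and 26 in shHepaCAM3 by at least 1, with 3 in common (9.68% and 11.5%). Those 3, Mir3569, Gm27616 and Gm27686, are small RNA entries with at most 20 reads in any library.

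**Figure D3:**
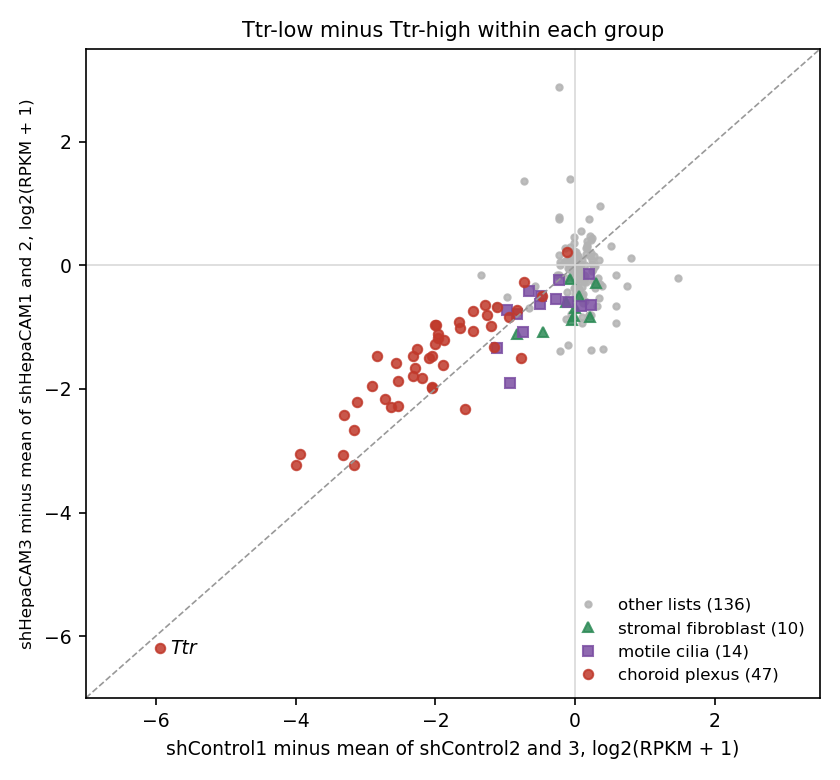
Mean log2(RPKM + 1) difference of the Ttr-low library from the Ttr-high libraries of its group, controls on the horizontal axis and knockdowns on the vertical axis, for the fitted genes of all lists; the dashed line marks equal differences. All 47 choroid plexus genes but Mdk lie below 0 on both axes, with Ttr at the far end.

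By gene class, the shared set was protein-coding. Among protein-coding genes, 59 were lower in shControl1 by at least 1, and 58 of these were lower in shHepaCAM3 than in both other knockdowns, 40 of them by at least 1. Of all 12235 protein-coding genes fitted, 4568 (37.3%) were below both other knockdowns by any amount. The exception was Gm17545. Among small RNA entries, 21 were lower in shControl1 by at least 1, and 4 of these were below both in shHepaCAM3, 0 by at least 1. Of 6 protein-coding genes higher in shControl1, 0 were above both in shHepaCAM3.

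Several genes outside the lists followed Ttr in both groups. Mfrp, a membrane frizzled-related protein, stood at 0.189, 14.3 and 8.69 RPKM in the controls and at 4.43, 3.66 and 0.169 RPKM in the knockdowns. Prr32, a proline-rich protein, stood at 0.527, 8.52 and 8.70 RPKM and at 4.73, 4.41 and 0.385 RPKM. Drc7, part of the regulatory complex of ciliary dynein, stood at 1.49, 11.9 and 8.89 RPKM and at 5.88, 5.62 and 0.940 RPKM. In each of the 3 the Ttr-low libraries lay far under the other 4, with side differences of -2.73 (SE 0.31), -2.33 (SE 0.15) and -1.99 (SE 0.14). Sulf1, an enzyme that trims heparan sulfate, stood at 0.512, 5.27 and 3.90 RPKM and at 3.21, 3.23 and 0.730 RPKM. Sema3b, a secreted semaphorin, and the defensin gene Defb11 had side differences of -1.53 and -1.89 and did not overlap between the sides either; Defb11 rests on 0 to 39 reads per library. These 6 were the protein-coding genes among the 10 taken for the largest lower values in shControl1 outside the lists, and all 6 were also lower in shHepaCAM3.

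The other 4 of those 10 were small RNA entries. Mir374b gave 1 read in shHepaCAM3 and 1 read in shHepaCAM1, and Snord19 lay between the other 2 knockdowns. Mir26a-1 and Mir221 were at 0 in shControl1 and highest of the knockdowns in shHepaCAM3, with at most 12 reads in any library. The 10 genes named for higher values in shControl1 were Mir3569, Snord71, Mir208a, Snord83b, Mir8091, Ighj4, n-R5s197, Mir7213, Mir541 and Baiap3. Of these, 5 were also higher in shHepaCAM3 than in both other knockdowns: 3 of 5 miRNAs, 1 of 2 snoRNAs and the rRNA entry. Reads were at most 25 per library for all of them but Baiap3.

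Between the sides, 52 genes were past the threshold in limma, 51 of them lower in the Ttr-low libraries. They were 30 choroid plexus list members, Ttr among them, 3 motile cilia genes and 19 genes on no list. Those 19 include the serotonin receptor gene Htr2c, which choroid plexus is known to carry at high level, at 2.24, 6.92 and 5.41 RPKM in the controls and 4.23, 2.85 and 0.896 RPKM in the knockdowns. They also include Cdkn1c, an inhibitor of the cell cycle, Car14, a carbonic anhydrase, Elovl7, a fatty acid elongase, and Bmp6, a secreted growth factor, with side differences of -1.56, -0.83, -0.95 and -0.91. Car14 stood at 3.999, 8.64 and 7.97 RPKM and at 6.56, 7.29 and 3.67 RPKM. In Htr2c and Car14 both Ttr-low libraries were below the other 4. Gm27686, a predicted small RNA, was the only gene past the threshold in the other direction (1.43, SE 0.18).

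Ependyma, the ciliated lining of the ventricles, lies next to choroid plexus, and its motile cilia genes had the next lowest median among the lists with at least 5 fitted genes. Of 14 fitted, 8 had both Ttr-low libraries below the other 4, 3 were past the threshold between the sides (Pifo, Rsph1 and Ccdc113), and the median side difference was -0.51. Pifo, a factor of cilium disassembly, stood at 0.519, 1.94 and 2.68 RPKM in the controls and at 1.74, 2.14 and 0.162 RPKM in the knockdowns. Dynlrb2, a dynein light chain, stood at 2.73, 5.08 and 7.36 RPKM and at 5.003, 6.24 and 0.768 RPKM. Rsph1, a radial spoke protein, stood at 5.98, 9.71 and 11.8 RPKM and at 11.1, 10.4 and 4.56 RPKM. Side differences were -1.23 (SE 0.15) for Pifo, -0.91 (SE 0.11) for Rsph1 and -0.81 (SE 0.10) for Ccdc113, and -1.42 (SE 0.24) for Dynlrb2, which was not past the threshold. Below both other libraries of its group was shControl1 in 9 of the 14 and shHepaCAM3 in 13. Over all 13864 genes fitted, shControl1 was so in 4155 and shHepaCAM3 in 5016. Both Ttr-low libraries were below the other 4 in 6.87% of all genes, and 0.368% were past the threshold and lower. Other genes of the list, such as Tmem212, at 2.86, 1.85 and 4.97 RPKM in the controls and 2.38, 4.93 and 1.96 RPKM in the knockdowns, overlapped. Summed over the 18 listed genes, the level was 26.5 to 34.2 RPKM in the Ttr-low and 46.98 to 59.96 RPKM in the Ttr-high libraries, a much smaller gap than that of the choroid plexus lists.

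Genes of the tissue under the epithelium differed less. Among 10 fitted genes of leptomeningeal and stromal fibroblasts, Ogn and Dcn, both small proteoglycans of matrix, had the Ttr-low libraries lowest. Ogn stood at 1.23, 3.35 and 2.59 RPKM in the controls and at 1.95, 2.78 and 0.547 RPKM in the knockdowns, and Dcn at 2.45, 4.30 and 3.22 RPKM and at 5.63, 4.68 and 1.90 RPKM. In all 10 shHepaCAM3 was below both other knockdowns, but shControl1 was below both other controls only in Ogn and Dcn. Among all 13864 genes fitted, 5016 were below in shHepaCAM3 and 4155 in shControl1, and 6.87% had both Ttr-low libraries lowest. Fmod, a further small proteoglycan, differed by -0.05 in the controls and by -0.88 in the knockdowns. The list's median side difference was -0.36, and its summed level overlapped, from 180 to 231 RPKM in the Ttr-low and from 163 to 388 RPKM in the Ttr-high libraries. Plvap, the diaphragm protein of fenestrated capillaries, stood at 6.03, 6.41 and 6.86 RPKM in the controls and at 7.38, 6.36 and 7.13 RPKM in the knockdowns, with no gap between the sides. Among 8 endothelial genes the Ttr-low libraries were the lowest in 1, Slco1c1, a thyroid hormone transporter of brain capillaries, at 9.37, 16.9 and 14.0 RPKM and 11.4, 12.6 and 7.06 RPKM. All 8 border macrophage genes were below the filter, with a summed level of 2.28 to 3.97 RPKM in all 6 libraries, and 5 fitted mural cell genes had a median of -0.10.

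**Figure D4:**
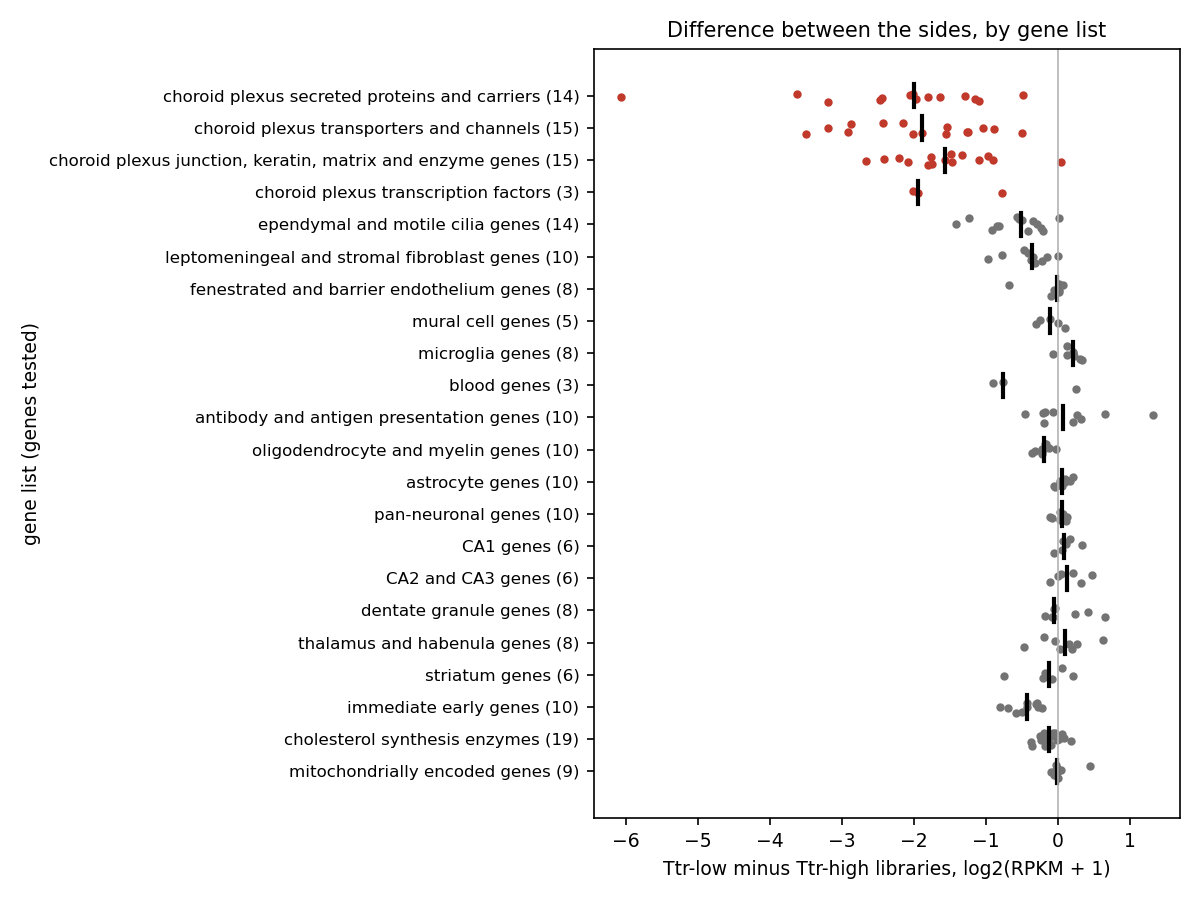
Ttr-low minus Ttr-high difference in log2(RPKM + 1) for each fitted gene (point) of each list, with the list's median (bar); choroid plexus lists are red. The 4 choroid plexus medians lie between -1.99 and -1.56, and the motile cilia median at -0.51.

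Except for the blood list, lists of neighbouring regions and of other cell types had smaller median side differences than the motile cilia list. In some cases the difference came from 1 group alone. The striatum list had a median of -0.12, and in its gene Ppp1r1b, a phosphatase regulator, the Ttr-low libraries were lowest, at 20.3 and 23.6 RPKM against 31.8 to 41.9. Thalamus and habenula genes had a median of 0.10; Slc17a6, a glutamate transporter of thalamus, stood at 6.46, 1.13 and 2.39 RPKM in the controls and at 1.80, 1.88 and 1.46 RPKM in the knockdowns. CA2 and CA3 genes had a median of 0.13 and dentate granule genes of -0.04, although the dentate list summed to 139 to 150 RPKM in the Ttr-low and 110 to 133 RPKM in the Ttr-high libraries. Plk5 of that list stood at 18.0, 14.9 and 12.8 RPKM in the controls and at 14.3, 12.8 and 27.3 RPKM in the knockdowns. Immediate early genes had a median of -0.42 and myelin genes of -0.19. In both lists this came from the knockdown libraries: shHepaCAM3 was below both other knockdowns in 10 of 10 immediate early and 10 of 10 myelin genes, while shControl1 was below both other controls in 2 and 0. Of all 13864 genes fitted, 5016 were so in shHepaCAM3 and 4155 in shControl1. Microglia genes had a median of 0.22. The 3 fitted blood genes had a median of -0.75, with Hbb-bs, a beta globin, at 3.42, 7.66 and 9.96 RPKM and 3.95, 4.196 and 2.23 RPKM. Mitochondrially encoded genes had a median of 0.00, and antibody and antigen presentation genes of 0.08. Outside the choroid plexus and cilia lists, 0 list genes were past the threshold between the sides. The part of these other genes in the side differences was not tested.

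The knockdown contrast itself was not used to form the sides. Since each group held 1 Ttr-low library, adding the side changed no log2 estimate and acted only on the residual spread, which narrowed for 46 of the 47 choroid plexus members and for 5487 of all 13864 genes. For genes that follow Ttr, this narrowing comes with having drawn the sides on Ttr. Across all genes, limma with the side called 764 genes, 537 that rose (3.87%) and 227 that fell (1.64%). Scaling each library to its median gene gave 350 and 312, and quantile normalization 377 and 311. Without the side the fit called 842, of which 664 were shared, 86.9% of the calls with the side and 78.9% of those without. With the side, the number was 120, 64 and 33 without shControl1, shControl2 and shControl3, 759, 474 and 106 without shHepaCAM1, shHepaCAM2 and shHepaCAM3, and 104 without both Ttr-low libraries.

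Of the 46 choroid plexus members other than Ttr, 3 fell and 1 rose in the knockdown contrast with the side as covariate. Over all genes, 1.64% fell and 3.87% rose. Ttr stood at -1.08; its own values set the covariate, so no test of it is read from this fit. Otx2 fell by 0.86 (SE 0.12, limma adjusted p = 0.0179), Clic6 by 0.86 (SE 0.16, adjusted p = 0.0346) and Krt18 by 0.74 (SE 0.15, adjusted p = 0.0447). Mdk rose by 0.58 (SE 0.12, adjusted p = 0.0492). Otx2, Clic6 and Krt18 follow Ttr, so their narrow SE comes with having drawn the sides on Ttr. Their calls in this fit therefore describe the libraries and are not read as tests. Without the covariate, limma adjusted p was 0.790 for Ttr, 0.498 for Otx2, 0.678 for Clic6 and 0.603 for Krt18, against 0.0384 for Mdk. Without the side, Mdk was the only member called. The Mdk call was lost in 12 of 17 alternatives to the fit with the side, with limma adjusted p up to 0.179. Mdk did not pass with quantile normalization or median scaling (adjusted p = 0.0652 and 0.0957), and under both of these Trpm3, a cation channel gene, fell in its place. With log2 Ttr as covariate 0 members were called. With limma-voom on whole reads, a fit added after the data were seen, 27 members were called, 26 of them lower in the knockdowns, with Ttr among them. Leaving out shControl2 or shControl3 left 0 members called, and leaving out any of the other 4 libraries left 2 or 3, Ttr included where it passed.

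**Figure D5:**
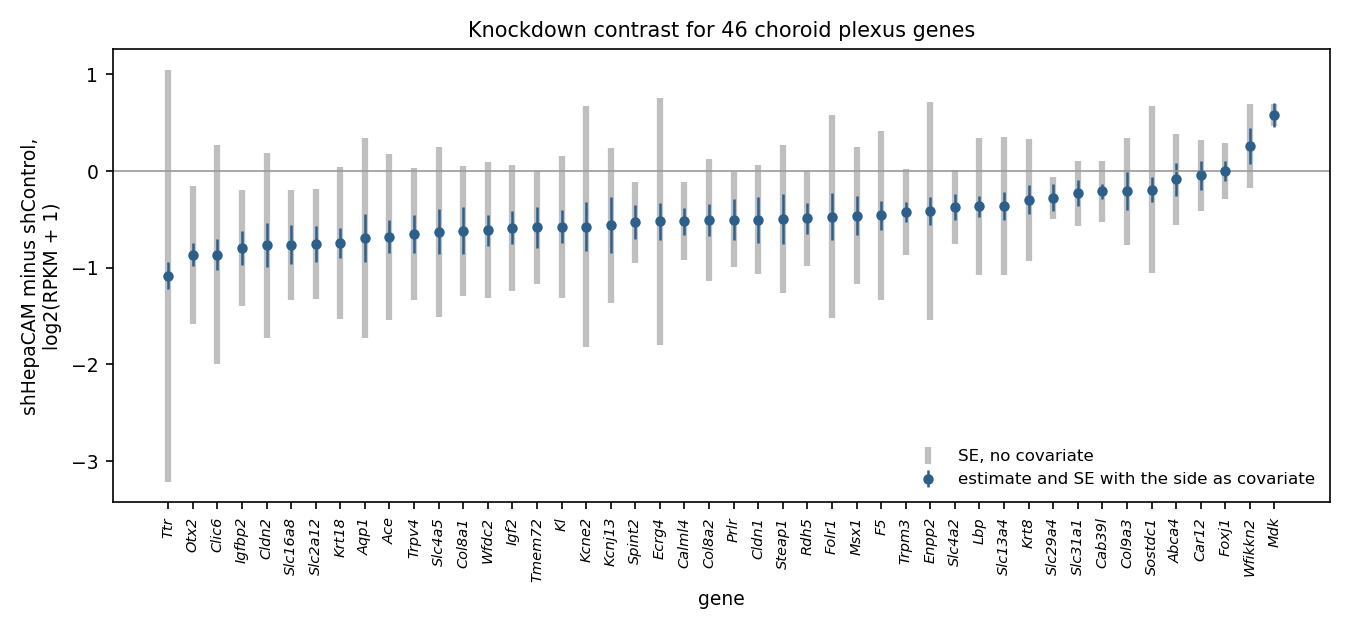
Knockdown minus control difference in log2(RPKM + 1) for 46 of the 47 choroid plexus genes, with the standard error from the fit with the side (blue) and without it (grey). Estimates are the same in both fits, from -1.08 for Ttr to 0.58 for Mdk, while the error of Ttr and most others is much wider without the side.

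Within the 4 Ttr-high libraries, the choroid plexus genes were mostly lower in the knockdown pair. For 39 of the 46 other than Ttr, both shHepaCAM1 and shHepaCAM2 were below both shControl2 and shControl3, against 2633 of all genes (19%). The median knockdown difference of the 46 in these libraries was -0.73, and that of all genes 0.06. By role, with Ttr counted, both knockdowns were below both controls for 12 of 14 secreted proteins and carriers and 13 of 15 transporters and channels. The same held for 14 of 15 junction, keratin, matrix and enzyme genes, and 1 of 3 transcription factors. Limma on these 4 libraries called 2 members, Krt18 (-0.97, adjusted p = 0.0302) and Otx2 (-0.99, adjusted p = 0.0311), against 104 of all 13864 genes fitted. Both genes follow Ttr, and the libraries were picked on Ttr. The 2 calls therefore describe the libraries and are not read as tests. Ttr stood at -1.001 in the same limma fit, and no test of it is read, since its own level picked the libraries. Wfikkn2, an inhibitor of myostatin-like factors, went the other way, at 1.61 and 1.54 RPKM in the controls and 3.02 and 2.32 RPKM in the knockdowns. Foxj1 stood at 10.2 and 13.1 RPKM in the controls and 10.5 and 12.0 RPKM in the knockdowns, and overlapped. The 4 libraries differ in their choroid plexus level for most of the genes read. A difference with the knockdown and one with choroid plexus content cannot be told apart here.

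Genes gained and lost with the side came from many groups. The side added 100 calls and removed 178. The 5 gained genes with the largest rises were the antibody segments Ighv1-26 and Igkv3-2, Slpi, Mir8116 and the B cell receptor gene Cd79a, and the 5 with the largest falls were Gm27343, Ttr, on which the side was drawn, Defb11, Gm22720 and Iyd. Slpi, a secreted protease inhibitor, stood at 1.09, 0.635 and 0.114 RPKM in the controls and at 1.34, 2.73 and 7.34 RPKM in the knockdowns (log2 1.42, SE 0.27, limma adjusted p = 0.0392 with the side and 0.116 without). Defb11 fell by 1.04 (SE 0.16, limma adjusted p = 0.0233 with the side and 0.391 without), from 0.922, 7.09 and 5.93 RPKM to 3.19, 1.95 and 0 RPKM. Defb11 follows Ttr as well, so its call with the side is not read as a test. The list of cholesterol synthesis enzymes, the pathway in the study's title, had 12 of 19 genes that fell with the side and 12 without it. Antibody and antigen presentation genes rose in 10 of 10 in both fits, and microglia genes in 6 of 8 with the side and 5 without. With the side, 3.87% of all genes rose and 1.64% fell.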

How the data were processed

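RNA sequencing of 6 mouse hippocampus libraries was read as RPKM per gene, computed and deposited by the authors, 1 file per library. Per the submitters' processing notes, TopHat2 2.0.12, Bowtie2 2.0.6 and build mm39 were used; for the counter, annotation and strand, the setting is not given in the sources read here. GENCODE M21, on another build, gave names, classes and exon lengths. Whole reads were recovered from the RPKM values for 99.3% of 29872 genes (tolerance 0.01 read) and gave the depth, Ttr intervals and an added limma-voom fit.

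The members, lists and tests were chosen with earlier results of these data known. The genes whose mean reached 1 RPKM entered limma 3.58.1 (R 4.3.3) with a mean-variance trend on log2(RPKM + 1), which understates changes of low genes, with group and side as terms, Benjamini-Hochberg adjustment and a threshold of 0.05. The fit was checked on simulated data. Replicates were grouped by library titles, and whether the numbers pair the libraries was not settled.

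Named were all choroid plexus list members, the 10 genes per direction outside the lists with the largest smaller difference of shControl1 from both other controls (at least 1, no predicted genes or pseudogenes), members called in the knockdown contrast, the 3 largest side differences of other lists, and 5 genes per direction gained with the side. The latter were to be ranked by how far their estimate moved; it did not move, so the largest changes were taken. Genes on no list that were past the side threshold, and list genes outside these rules, were named after their values were seen. Ecrg4 was matched by a RefSeq synonym. 1 list member counts in the totals and is not reported here. Sequences are from RefSeq. Alternatives were a pseudocount of 0.1, no filter, a filter at 5 RPKM, quantile and median scaling, no trend, a replicate block, no side, log2 Ttr, each library left out, both Ttr-low libraries left out, and, for the within-group counts, other minimum differences. Python 3.11.15 and matplotlib 3.10.9 made the figures.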

Additional observations from a re-analysis of the deposited data

Results flagged for a closer look

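In 8 of the named genes the Ttr-low control and the Ttr-low knockdown lay on opposite sides of both other libraries of their group, by at least 1 in log2(RPKM + 1) in at least 1 of the groups; the difference between the groups was not tested, and each side of it rests on 1 library against 2. Ighg2c, an antibody constant region, stood at 0.132, 0.348 and 0.304 RPKM in the controls and at 108, 79.3 and 690 RPKM in the knockdowns, and the within-group difference was 3.11 higher in the knockdowns on the log2(RPKM + 1) scale; the control values rest on 3 to 8 reads. Slc17a6 was highest of the controls in shControl1 and lowest of the knockdowns in shHepaCAM3 (-1.68). Zic1, a transcription factor on the thalamus and habenula list, stood at 4.63, 2.74 and 3.83 RPKM in the controls and at 7.17, 6.08 and 1.99 RPKM in the knockdowns (-1.75). Baiap3, a regulator of vesicle release, stood at 6.52, 1.42 and 1.77 RPKM and at 1.09, 1.35 and 0.7999 RPKM (-1.84), with 570 reads in shControl1. The other 4 rest on at most 25 reads in any library: Mir26a-1 (3.37), Mir221 (2.86), Ighj4 (-5.79) and Mir541 (-3.98). Opposite differences below that size also occurred, among them that of Mdk, a choroid plexus list member (-0.11 in the controls and 0.22 in the knockdowns).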

How the results depend on the processing

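Counts of genes past the threshold moved by over 1.5 times under several alternatives, and the cause was not tested. The knockdown count was 764, and 48 with no filter, 456 without trend, 315 with the replicate block, 104 without both Ttr-low libraries and 1341 with limma-voom on whole reads, an alternative chosen after the data were seen; it ran from 33 to 759 with 1 library left out. The count between the sides was 52, and 13 with no filter, 25 with the replicate block, 97 with limma-voom, and 17 to 38 with 1 library left out (18, 21, 17 and 34 without shControl1, shControl3, shHepaCAM1 and shHepaCAM3). Choroid plexus members called in the knockdown contrast, with Ttr counted, were 5, and 8 with a pseudocount of 0.1, 0 with no filter, 2 without trend, 2 with the replicate block, 27 with limma-voom (26 of them lower), 1 without the side, 0 with log2 Ttr, 2 without both Ttr-low libraries and 0 to 3 with 1 library left out. The 40 genes lower in the Ttr-low library of both groups became 71 with a pseudocount of 0.1, 11 with a difference of 2 and 88 with a 1.5-fold difference. Of 99 alternative values of named knockdown calls, 50 lost the call and 0 turned; of 716 side differences, 146 moved by more than the residual SD and 0 turned. Same-numbered libraries of the groups correlated at -0.21, 0.02 and -0.14 in their deviations from the group means. These deviations still held the side, which fell on number 1 in the controls and 3 in the knockdowns. They cannot decide whether the replicate numbers pair the libraries. Genes with few reads, such as small RNA entries, are limited by depth.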
